A study of Mus musculus with 24 samples.

Results

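The 10 genes Hyou1, Hspa5, Hsp90b1, Dnajb9, Herpud1, Sel1l, Trib3, Pdia4, Xbp1 and Atf4 encode chaperones of the endoplasmic reticulum (ER), parts of its degradation pathway and transcription factors of the unfolded protein response. They were taken by name from the 35974 gene symbols of the expression table, and all 10 were found. A filter on low values, a deposited value of at least 1 on the natural log scale in at least 4 libraries, left 4875 genes for testing and 8 of the 10 members. Pdia4 and Atf4 fell below it and are described without a test. Trib3 reached that value in 4 libraries, all of class 2 (3 TGA and 1 WT), so it passed only through the class in which it is high. Sel1l reached it in 8 libraries, 5 of them of class 2, and Xbp1 in 7, 4 of them of class 2. All 3 genes would fail the filter without class 2, and also without the TGA libraries. Their differences between classes and genotypes are read from their levels, not from a test.

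Liver RNA of mice of strain C3H/HeJ was sequenced in 24 libraries. The TGA libraries are labelled transgenic and the WT libraries wild type, and the titles add a number (1 to 4) and one of the suffixes 2, 4 and 8, called class here. The groups are therefore TGA class 2, TGA class 4, TGA class 8, WT class 2, WT class 4 and WT class 8, with 4 libraries each. The labels do not name the transgene, its promoter or the age of the mice, and they do not define the class, although the series title concerns polyploid hepatocytes (liver parenchymal cells with extra genome copies). Nothing in them says that the 4 libraries of a group come from separate animals, so the p-values cover only variation among these libraries, and that variation can be technical.

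Hepatocytes secrete most plasma proteins, and those proteins fold in the ER. Hspa5 (BiP) binds unfolded chains there, Hyou1 exchanges its nucleotide, Hsp90b1 (GRP94) is the ER member of the Hsp90 family, and Pdia4 forms and rearranges disulfide bonds. When unfolded protein builds up, the sensors IRE1, ATF6 and PERK start the unfolded protein response: IRE1 splices the Xbp1 mRNA into the form that codes for an active transcription factor, ATF6 is cut to release another, and PERK slows translation while favouring that of Atf4. Dnajb9 is a co-chaperone of BiP, Herpud1 and Sel1l belong to the complex that sends misfolded proteins to degradation, and Trib3 is a pseudokinase induced through ATF4. A count per gene does not separate spliced from unspliced Xbp1, and ATF4 is controlled mostly at translation, so neither activity was measured here.

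Chaperone genes respond to ATF6 and XBP1 through short promoter elements, shown here because they are the sequence feature these genes are best known to share. RefSeq promoters (build GRCm38.p6) matched 9 of the 10 members by symbol, all but Hyou1. In the 250 bases before each start, both strands were searched for the ER stress response element (CCAAT and CCACG with any 9 bases between), its second form (ATTGG and CCACG with any 1 base between), the unfolded protein response element TGACGTGG and the C/EBP-ATF composite element TGATGNAA. These were present in 0.113%, 0.0304%, 0.563% and 3.45% of the 32851 promoters in the table. The first element matched in 2 members, Hspa5 and Hsp90b1 (once and on both strands), and the second form and the composite element each matched in Herpud1, the composite element on the reverse strand. None of these matches overlapped. The unfolded protein response element matched in 0 of the 9. A match is a match of letters only. Capitals mark the fixed letters of the matches, 5′ to 3′ on the strand of the gene, from chr2:34772019-34772049 (plus strand), chr10:86705527-86705662 (minus strand) and chr8:94386311-94386393 (plus strand):
Hspa5: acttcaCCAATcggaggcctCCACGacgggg
Hsp90b1: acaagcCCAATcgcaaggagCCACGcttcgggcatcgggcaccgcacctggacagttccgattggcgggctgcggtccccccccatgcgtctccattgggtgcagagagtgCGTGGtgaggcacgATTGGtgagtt
Herpud1: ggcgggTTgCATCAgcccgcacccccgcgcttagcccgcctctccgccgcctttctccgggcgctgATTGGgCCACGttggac

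The libraries differed widely in content. The number of genes above 0 was 1624 to 9096 in TGA libraries and 2071 to 15147 in WT libraries, and Gapdh, a gene used by every cell, was listed at 0 in 19 of 24. Rplp0, Actb and Eef1a1, also broadly used, were at 0 in 17, 14 and 5 of 24. A value of 0 is therefore no evidence of silence. WT number 1 class 2 and class 4 stood apart, with 15147 and 14469 genes above 0, and values without WT number 1 are given beside the genotype differences of the main chaperones, the chaperones seen together, the hepatocyte markers and the class differences. All 18 hepatocyte markers looked for were in the tested set, whereas Kupffer cell and macrophage, T, B and plasma cell, neutrophil and erythroid markers had 0 tested genes, cholangiocyte and stellate cell markers 1 each and endothelial markers 3. Of 11 Kupffer cell and macrophage markers, 3 (Vsig4, Cd5l and C1qa) were at 0 in all 24 libraries. So were 3 of 12 T, B and plasma cell markers (Cd79a, Mzb1 and Nkg7). The other markers of both lists were above 0 in at least 1 library. Read totals cannot be recovered from the values, so the sequencing depth is unknown. Below, a level is log2(normalised count + 1) and is not scaled to gene length, so levels are compared between libraries and not between genes.

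Of the 240 member values, 127 were 0. The members divided into 5 that were above 0 in at least 12 of 24 libraries, Hspa5 (18), Hyou1 (17), Hsp90b1 (16), Herpud1 (15) and Dnajb9 (12), and 5 seen in fewer, Xbp1 (10), Sel1l (9), Trib3 and Pdia4 (6 each) and Atf4 (4). Of the 113 values above 0, 88 were shared exactly (within 1e-09) with another gene of the same library. In TGA number 2 class 4, the library with the fewest genes above 0, Hspa5 and Dnajb9 had the same level, 5.67. In such libraries a level is a coarse step and small differences carry no information.

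**Figure D1:**
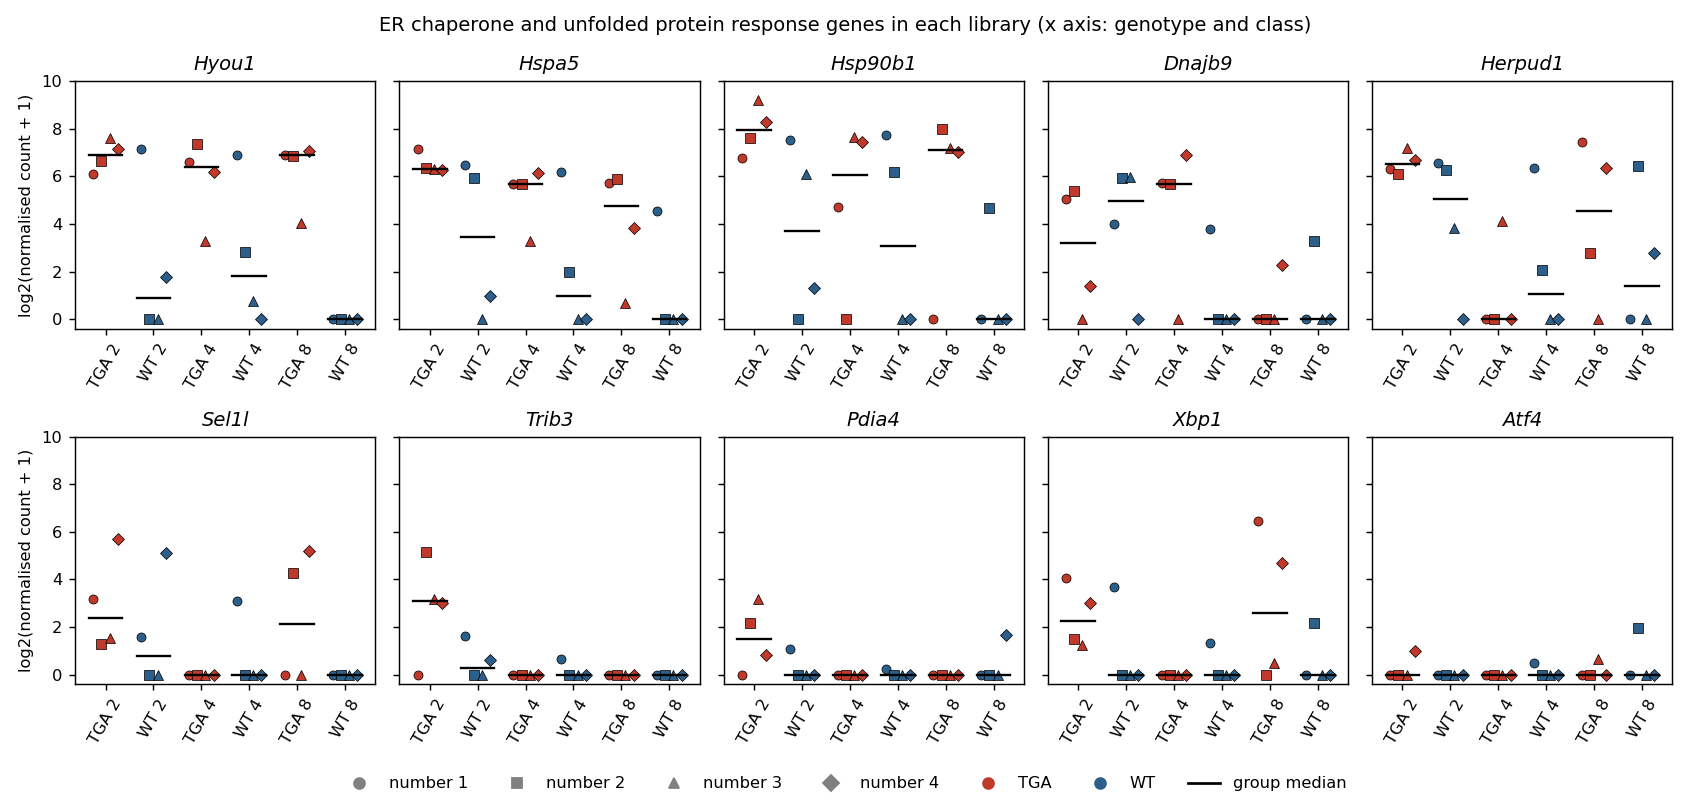
Level of each of the 10 members in each of the 24 libraries, as log2(normalised count + 1), by genotype and class (x axis). Colours mark TGA and WT, symbols the number from 1 to 4, and bars the group medians. Hyou1 was above 0 in 12 of 12 TGA and 5 of 12 WT libraries.

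TGA liver was first compared with WT liver over all classes, with the 3 libraries of each genotype and number averaged. The ER chaperone Hyou1 rose in TGA, and it was the only member to pass the threshold. The other major chaperones, Hsp90b1 and Hspa5, had log2 differences of 3.36 and 3.06 that did not pass, and the remaining 5 tested members lay between 0.71 and 1.19. All 8 tested members had higher values in TGA, where 54.7% of all tested genes did, and the median of the 8 was 1.12, against 0.11 over all tested genes. Without WT number 1 the direction was the same in all 8 and the median was 1.54. The counts and medians include Trib3, Sel1l and Xbp1, which the filter admitted only with their TGA libraries, and are descriptions.

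Hyou1, also called ORP150 or GRP170, had levels of 6.08, 6.66, 7.62 and 7.14 in TGA class 2 (numbers 1 to 4), against 7.15, 0, 0 and 1.77 in WT class 2. Its levels were 6.61, 7.37, 3.29 and 6.18 in TGA class 4, against 6.91, 2.81, 0.78 and 0 in WT class 4. In class 8 they were 6.89, 6.86, 4.05 and 7.08 in TGA, while all 4 WT libraries were listed at 0. The 2 high WT libraries were those of number 1 in classes 2 and 4, within the TGA range, and every other WT library was below the lowest TGA library. The means per number were 6.53, 6.97, 4.98 and 6.80 in TGA and 4.69, 0.94, 0.26 and 0.59 in WT, and they did not overlap. Such a separation with TGA higher was seen in 0.944% of tested genes.

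The difference for Hyou1 was 4.70 (SE 1.09, 95% confidence interval 2.55 to 6.85, adjusted p = 0.00939, limma). Of the 4875 genes tested, 0.246% rose in TGA, and Hyou1 was in place 14 by p-value. An exact two-sided permutation test of the 8 means gave p = 0.0286, the smallest that 4 against 4 allows, and 0.588 when adjusted over all tested genes. The call was lost without WT number 2, 3 or 4 (adjusted p = 0.0672, 0.143 and 0.0906), without the trend in limma's prior (0.051), with a pseudocount of 16 (0.0671) and with no filter on low values (0.297). Without WT number 1 the difference was 5.72 (adjusted p = 0.000676).

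Hspa5, the main Hsp70 chaperone of the ER, was above 0 in 12 of 12 TGA libraries and in 6 of 12 WT libraries. Hspa5 and Hyou1 were the 2 members above 0 in every TGA library, which held for 3.79% of tested genes. The levels of Hspa5 were 7.16, 6.33, 6.31 and 6.25 in TGA class 2, against 6.49, 5.92, 0 and 0.99 in WT class 2. In class 4 they were 5.69, 5.67, 3.27 and 6.12 in TGA and 6.16, 1.98, 0 and 0 in WT. In class 8 they were 5.72, 5.87, 0.66 and 3.82 in TGA, against 4.55, 0, 0 and 0 in WT. WT number 1 lay within the TGA range in classes 2 and 8 and above it in class 4, so the groups overlapped in each class. The other WT libraries were below the lowest TGA library of their class.

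Over all classes the Hspa5 means per number were 6.19, 5.96, 3.41 and 5.39 in TGA and 5.73, 2.64, 0 and 0.33 in WT. The difference of 3.06 (SE 1.10, 95% confidence interval 0.90 to 5.23) had an adjusted p of 0.309 (limma). Without WT number 1 it was 4.25 (adjusted p = 0.0223). The SE is smaller than the 1.47 that the gene's own spread gives, since limma pools the spread over genes.

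Hsp90b1, which folds secreted proteins and surface receptors, was above 0 in 10 of 12 TGA and 6 of 12 WT libraries. Its levels were 6.76, 7.59, 9.21 and 8.30 in TGA class 2, against 7.54, 0, 6.09 and 1.29 in WT class 2. They were 4.72, 0, 7.65 and 7.42 in TGA class 4, against 7.74, 6.16, 0 and 0 in WT class 4. Class 8 gave 0, 7.97, 7.19 and 7.01 in TGA, and 0, 4.67, 0 and 0 in WT. In class 2 WT number 1 lay within the TGA range and the other 3 below it. In classes 4 and 8 a TGA library was itself listed at 0, so the groups overlapped there too.

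The Hsp90b1 means per number were 3.83, 5.19, 8.01 and 7.58 in TGA and 5.09, 3.61, 2.03 and 0.43 in WT. The difference of 3.36 (SE 1.10, 95% confidence interval 1.18 to 5.54, adjusted p = 0.224, limma) did not pass. The gene did pass without WT number 1 (4.13, adjusted p = 0.0332) and with the number of genes above 0 as a covariate (4.02, adjusted p = 0.0379, where 0.636% of tested genes rose). It also passed when the 4 libraries in which more than 7000 genes were above 0 were left out (4.84, adjusted p = 0.0273, limma, where 1.13% rose). Those were WT number 1 classes 2 and 4, WT number 4 class 2 and TGA number 3 class 8. WT number 1 was then its class 8 library alone, so the classes were not balanced between the genotypes in that fit. Without WT number 1, 1.46% of all tested genes rose in TGA, with Hyou1, Hsp90b1 and Hspa5 among them. All 3 of these chaperones were above 0 together in 10 of 12 TGA libraries and 4 of 12 WT libraries, and all 3 were listed at 0 in 0 TGA and 3 WT libraries. Of the 9 WT libraries other than number 1, 2 had all 3 chaperones above 0.

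**Figure D2:**
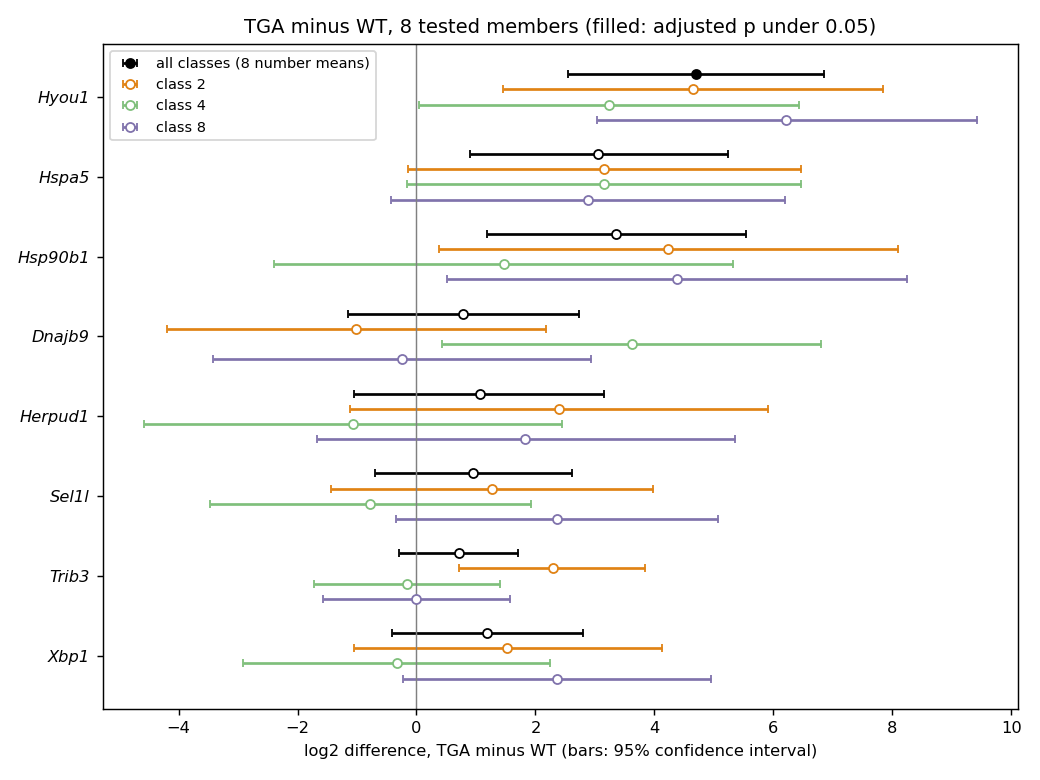
Log2 difference, TGA minus WT, of the 8 tested members over all classes (black) and within class 2, 4 and 8, with 95% confidence intervals from limma. The filled point, Hyou1 over all classes at 4.70, is the only one with an adjusted p under 0.05. Trib3, Sel1l and Xbp1, which the filter admitted only with their TGA libraries, are drawn without being read as tests.

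Within single classes, 0 members passed in class 2, class 4 or class 8 (limma), where 0.103%, 0.0205% and 0.0205% of tested genes did. Unadjusted p-values under 0.05 were found for 3 members in class 2 (Trib3 among them), 2 in class 4 and 2 in class 8, all with higher values in TGA. Such p-values with TGA higher belonged to 6.56%, 1.58% and 5.19% of all tested genes. The difference for Hyou1 was 4.65 in class 2 (SE 1.59, adjusted p = 0.346), 3.24 in class 4 (SE 1.59, adjusted p = 1) and 6.22 in class 8 (SE 1.59, adjusted p = 0.127). It passed in class 2 without WT number 1 (where 0.862% of tested genes rose) and in class 8 with those 4 libraries left out (0.185%). In class 8, where all WT libraries were at 0, the size depends on the pseudocount and was 2.58 with a pseudocount of 16. Whether the genotype difference changes with class was tested by interactions with class 2 as the base, given with the class comparisons.

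Among the genes of ER-associated degradation, Herpud1, an anchor of the degradation complex induced by ER stress, differed between genotypes by 1.06 (SE 1.06, 95% confidence interval -1.05 to 3.16, adjusted p = 0.753, limma), and by 1.54 without WT number 1 (adjusted p = 0.451). Its levels were 6.32, 6.08, 7.18 and 6.68 in TGA class 2, against 6.56, 6.28, 3.81 and 0 in WT class 2, so the groups overlapped. Sel1l, the partner of the ubiquitin ligase Hrd1, differed by 0.95, a description, since it passed the filter only with its TGA libraries. It was above 0 in all 4 TGA class 2 libraries (3.20, 1.31, 1.55 and 5.69) and in 2 WT class 2 libraries (1.57 and 5.11). In WT class 8 and TGA class 4 Sel1l was listed at 0 throughout.

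Dnajb9, a J-domain protein that recruits BiP to clients and to IRE1, was higher in TGA in class 4 and lower in classes 2 and 8 (3.62, -1.01 and -0.25), with none of these past the threshold. Its levels were 5.03, 5.40, 0 and 1.40 in TGA class 2, against 4.0, 5.92, 5.95 and 0 in WT class 2. In class 4 they were 5.71, 5.67, 0 and 6.89 in TGA, against 3.80, 0, 0 and 0 in WT. In class 8, TGA number 4 (2.29) and WT number 2 (3.28) were the only libraries above 0. The genotype difference over all classes was 0.79 (SE 0.98, 95% confidence interval -1.15 to 2.73, adjusted p = 0.808, limma). In class 4 alone the SE was 1.58 and the adjusted p was 1.

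The transcription factor Xbp1 was above 0 in all 4 TGA class 2 libraries, at 4.05, 1.52, 1.24 and 3.02, and in WT class 2 in number 1 only, at 3.70. In class 4 every TGA library was listed at 0, and WT number 1 was at 1.33. In class 8 its TGA levels were 6.46, 0, 0.48 and 4.70, against 0, 2.19, 0 and 0 in WT. The genotype difference of Xbp1 was 1.19, a description, since it passed the filter only with its TGA libraries. Atf4, the effector of the PERK branch, was above 0 in TGA number 4 class 2 (0.99), TGA number 3 class 8 (0.66), WT number 1 class 4 (0.48) and WT number 2 class 8 (1.97), and was too sparse to test.

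Trib3, an ATF4 target that inhibits AKT signalling, was seen in TGA in class 2 only, at 0, 5.14, 3.20 and 3.02 in numbers 1 to 4. In WT it was at 1.62, 0, 0 and 0.60 in class 2 and at 0.66 in number 1 class 4. The genotype difference over all classes was 0.71, a description, since mainly TGA class 2 libraries admitted Trib3 through the filter. Pdia4 was at 2.18, 3.20 and 0.82 in TGA numbers 2 to 4 of class 2, and at 1.08 (number 1 class 2), 0.24 (number 1 class 4) and 1.68 (number 4 class 8) in WT. In TGA number 3 class 2, Trib3 and Pdia4 had the same level, one that 40 genes of the library share.

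Hepatocyte markers also moved with the genotype. Of 18 tested markers, 17 had higher values in TGA and 4 passed the threshold, Alb (5.64), Apoa1 (3.71), Cps1 (4.66) and Trf (1.61, adjusted p = 0.0222, limma). The median difference of the 18 was 1.66. Of all tested genes, 54.7% had higher values in TGA and 0.246% rose. Without WT number 1, 17 markers again had higher values, 6 rose (1.46% of all tested genes did) and the median of the markers was 2.35. Their summed level ran from 65.2 to 137 in TGA libraries and from 20.6 to 119 in WT libraries, with 118 and 119 in WT number 1 classes 2 and 4 and at most 77.0 in the WT libraries of other numbers. Across the 24 libraries, the mean of the 10 members and this sum had a Spearman correlation of 0.94 (Pearson 0.95), given as a description of values that share library, depth and normalization. It was 0.93 (Pearson 0.94) over the 21 libraries without WT number 1. The correlation with the log2 number of genes above 0 was 0.36 (Pearson 0.37). The part of hepatocyte content in the differences of the members was not tested. In these libraries fewer cells of a type and less RNA per cell cannot be told apart. Summed levels of Kupffer cell and macrophage markers were 0 to 4.93 in TGA and 0 to 22.2 in WT, and of T, B and plasma cell markers 0 to 8.24 in TGA and 0 to 8.08 in WT. Those of endothelial markers were 0 to 7.28 in TGA and 0 to 13.9 in WT, and of stellate cell and fibroblast markers 0 to 8.65 in TGA and 0 to 11.6 in WT. Those of cholangiocyte markers were 0 to 10.85 in TGA and 0 to 6.77 in WT. The 22.2 for Kupffer cell and macrophage markers was that of WT number 3 class 8, and their median sum was 0 in both genotypes.

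**Figure D3:**
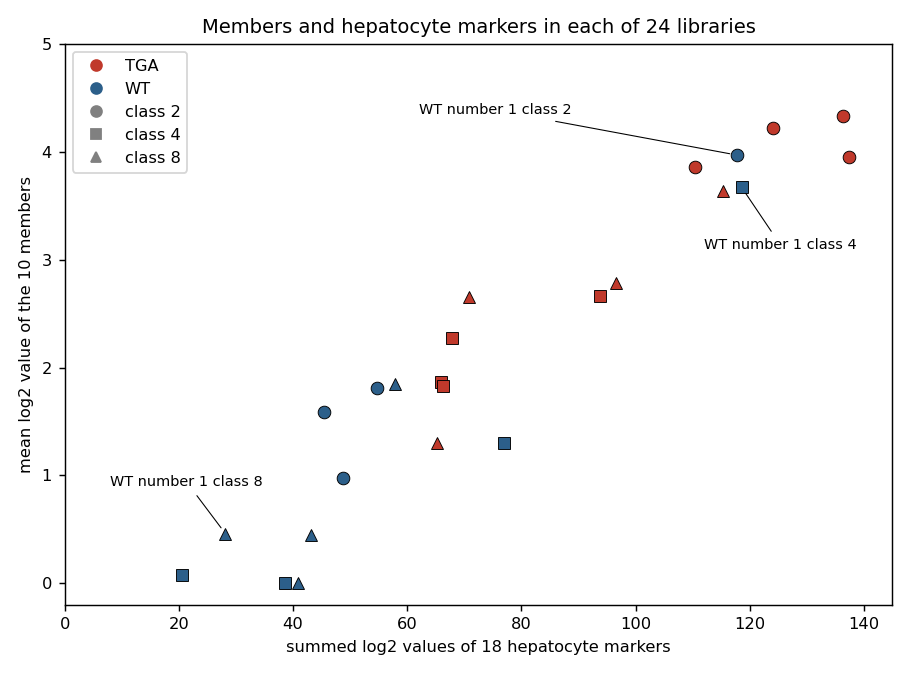
Mean log2 level of the 10 members (y axis) against the summed log2 levels of 18 hepatocyte markers (x axis) in each of the 24 libraries, by genotype (colour) and class (symbol). The points lie along one rising band (Spearman 0.94), and WT number 1 classes 2 and 4 lie beside the TGA class 2 libraries.

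Single members followed the marker sum to different degrees. The Spearman correlation over 24 libraries was 0.83 for Hyou1, 0.82 for Hspa5, 0.83 for Hsp90b1 and 0.66 for Herpud1 and Sel1l. It was 0.64 for Xbp1, 0.63 for Trib3 and 0.55 for Pdia4. It was 0.28 for Dnajb9 and 0.19 for Atf4. Among the members themselves, Trib3 and Pdia4 (0.81), Herpud1 and Xbp1 (0.78) and Hyou1 and Hspa5 (0.71) were the closest pairs, while Dnajb9 had no correlation above 0.40. Trib3 and Pdia4 were each listed at 0 in 18 of 24 libraries, so shared zeros weigh heavily in their 0.81. The 5 tested genes most like the mean of the members over the 24 libraries were Selenbp2 (Spearman 0.86), Serpina3k (0.85), Ces3a (0.85), Fasn (0.85) and Serpina1e (0.84). These code for a selenium-binding protein, a secreted protease inhibitor, a carboxylesterase, fatty acid synthase and an alpha-1-antitrypsin. Ces3a was above 0 in 11 of 12 TGA and 3 of 12 WT libraries, and Fasn in 11 of 12 TGA and 5 of 12 WT libraries.

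The classes were then compared over both genotypes. Against class 2, all 8 tested members had lower values in class 4 (median difference -1.57) and 7 of 8 in class 8 (median -1.92), where 57.8% and 56.1% of all tested genes had lower values and the medians over all tested genes were -0.23 and -0.16. None passed the threshold in either comparison (0 of 8 each, limma), and 0.308% and 0.0205% of tested genes did, all of them lower. At an unadjusted p under 0.05 (limma), 3 members were lower in each comparison, as were 10.5% and 6.07% of all tested genes. Trib3 was among them in both comparisons, and Sel1l in that of class 4. The comparisons share the class 2 libraries. The counts and medians include Trib3, Sel1l and Xbp1, which the filter admitted only with class 2, and are descriptions. Without WT number 1, 8 of 8 and 7 of 8 were again lower, with medians of -1.5 and -1.44. The hepatocyte marker sum moved with class too, with medians of 67.1 in class 4 and 61.5 in class 8, against 114 in class 2 (66.3 and 65.2 against 110 without WT number 1), and its part in the class differences was not tested. The median number of genes above 0 was 2650.5 in class 4 and 2788.5 in class 8, against 4328.5 in class 2.

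For class 4 against class 2, Herpud1 had the smallest p of the members. It was listed at 0 in 3 of 4 TGA class 4 libraries, with 4.14 in number 3, and its WT class 4 levels were 6.33, 2.08, 0 and 0. In class 2 it was above 0 in 7 of 8 libraries, where all 4 TGA levels were above 6. The difference was -3.80 (SE 1.23, 95% confidence interval -6.28 to -1.31, adjusted p = 0.184, limma), and -4.10 without WT number 1 (adjusted p = 0.141). It passed with the 4 libraries of over 7000 genes left out (-4.94, adjusted p = 0.0463, where 0.656% of tested genes fell). Of the 8 libraries each, Trib3 was above 0 in 1 of class 4 but in 5 of class 2, a contrast that its passage through the filter required. Sel1l was seen in 1 library of class 4 but 6 of class 2 and differed by -1.92. Xbp1 was seen in 1 of class 4 but 5 of class 2 and differed by -1.53. Both passed the filter only with class 2, so these differences are descriptions. Hyou1 differed by -0.31 (SE 1.12, 95% confidence interval -2.57 to 1.95, adjusted p = 0.917).

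For class 8 against class 2, Trib3 was listed at 0 in all 8 class 8 libraries. Dnajb9 was seen in 2 class 8 libraries and 6 class 2 libraries and differed by -2.77 (SE 1.12, 95% confidence interval -5.02 to -0.51, adjusted p = 0.53, limma). Hspa5 differed by -2.35 (SE 1.16, adjusted p = 0.673) and Hsp90b1 by -2.49 (SE 1.36, adjusted p = 0.733). Xbp1 differed by 0.04, a description, with TGA number 1 class 8 holding its highest level, 6.46. Herpud1 too had its highest level of the 24 libraries there, 7.42.

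**Figure D4:**
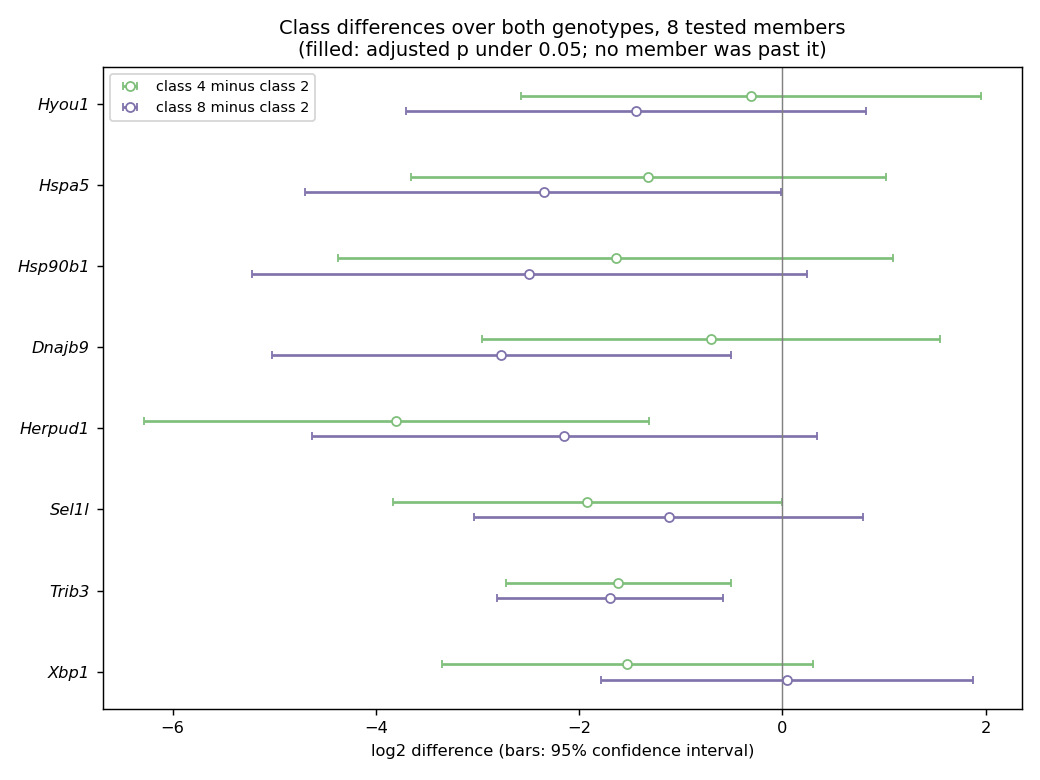
Log2 difference of class 4 and of class 8 from class 2, over both genotypes, for the 8 tested members, with 95% confidence intervals from limma. No member had an adjusted p under 0.05. Trib3, Sel1l and Xbp1, which passed the filter only with class 2, are drawn without being read as tests. Herpud1 in class 4 (-3.80) and Dnajb9 in class 8 (-2.77) lie farthest below 0.

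Between class 8 and class 4, 0 members passed, as did 0% of tested genes, and 0 had an unadjusted p under 0.05 (limma), against 6.58% of all tested genes. Differences ran from -2.06 for Dnajb9 (SE 1.12) to 1.65 for Herpud1 (SE 1.23). The difference of class 4 or class 8 from class 2 was also compared between the genotypes. The interaction gave 0 members and 0% of tested genes for each class (limma), and 2 members (Trib3 and Dnajb9) and 1 member (Trib3) had an unadjusted p under 0.05, against 6.34% and 4.06% of tested genes. For Trib3 no value is given, since its class 2 levels admitted it. For Dnajb9, the change from class 2 to class 4 in TGA minus that in WT was 4.63 (SE 2.24, adjusted p = 0.775). For Hyou1 this difference was -1.41 in class 4 (SE 2.25, 95% confidence interval -5.93 to 3.11) and 1.57 in class 8 (SE 2.25, 95% confidence interval -2.95 to 6.09).

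The wider pathway was described with 6 gene lists that hold none of the 10 members. Over all classes, 0 genes of these lists rose and 0 fell in TGA. A list gene above 0 in fewer than 4 libraries of a genotype passed the filter only with the other genotype. The difference of such a gene is a description, and its p-value is not read as a test. Of the genes named for this comparison, Tmx4, Ube2g2, Bbc3, Sec61a1 and Hspa4 were above 0 in 2 of 12 WT libraries. Tmbim6 and Srpr were above 0 in 3 of 12 WT libraries, and Dnajc1 in 3 of 12 TGA libraries. Cebpg is described below. Of the further ER folding genes, 17 of 39 in the table were tested and 13 had higher values in TGA, with a median difference of 0.55. The smallest p-values were those of Dnajc1, an ER J-domain protein (-1.56, SE 0.72, adjusted p = 0.497, limma), Ppib, an ER prolyl isomerase (2.24, SE 1.07, adjusted p = 0.526), and Tmx4, a membrane thioredoxin (0.94, adjusted p = 0.612). Ppib was above 0 in 10 of 12 TGA and 5 of 12 WT libraries.

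Of the ER-associated degradation genes, 16 of 32 were tested and 13 had higher values in TGA (median 0.45). Fam8a1, a component of the Hrd1 complex, was above 0 in 10 of 12 TGA and 4 of 12 WT libraries and differed by 3.59 (SE 1.07, adjusted p = 0.13, limma). Ube2g2, a ubiquitin-conjugating enzyme, differed by 0.97 (adjusted p = 0.587) and Os9, a lectin for misfolded glycoproteins, by 1.66 (adjusted p = 0.615). Of the sensors and transcription factors, 5 of 20 were tested and 3 had higher values (median 0.07). Tmbim6, an ER membrane protein that restrains IRE1, differed by 2.19 (adjusted p = 0.482) and Creb3l3, a hepatocyte ER-bound transcription factor, by 1.56 (adjusted p = 0.631). Creb3l2, a related factor, differed by -0.15 (adjusted p = 0.96).

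Of the PERK-ATF4 targets, 9 of 35 were tested and 7 had higher values in TGA (median 0.70). Cebpg, a partner of ATF4, was listed at 0 in all 12 TGA libraries while above 0 in 9 of 12 WT libraries. Cebpg passed the filter only through WT libraries, so its difference of -1.93 is a description, not a test. Bbc3, a pro-apoptotic BCL2 family member, differed by 1.85 (adjusted p = 0.542, limma). Atf5, a factor translated like Atf4, differed by 1.83 (adjusted p = 0.555) and was above 0 in all 24 libraries. Translocon, signal peptidase and N-glycosylation genes had 11 of 39 tested, 8 with higher values (median 0.47). Magt1, an oligosaccharyltransferase subunit, differed by -2.39 (SE 0.89, adjusted p = 0.345), Sec61a1, the channel subunit, by 1.61 (adjusted p = 0.555) and Srpr, the signal recognition particle receptor, by 0.89 (adjusted p = 0.732).

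Cytosolic and mitochondrial chaperones, a set outside the ER, had 12 of 37 tested and 9 with higher values (median 0.20). Hsp90ab1, the cytosolic counterpart of Hsp90b1, was above 0 in 12 of 12 TGA and 7 of 12 WT libraries and differed by 2.21 (SE 1.07, adjusted p = 0.536, limma). Hspa4 differed by 1.18 (adjusted p = 0.555) and Hspa9, the mitochondrial Hsp70, by 1.24 (adjusted p = 0.659). No test between the lists and the members was made, so the larger median of the members, 1.12, is a description.

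**Figure D5:**
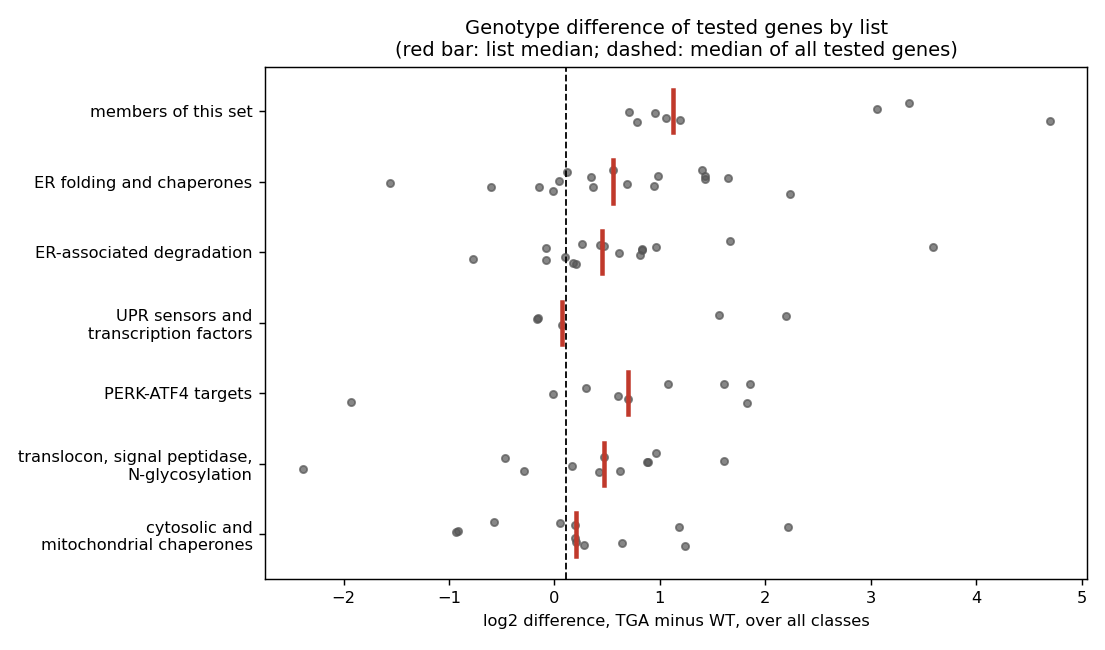
Log2 difference, TGA minus WT over all classes, of each tested gene in the 10-gene set (top row, 8 tested) and in 6 wider lists (each point is a gene, red bars are list medians, the dashed line is the median of all tested genes, 0.11). The 3 points of the top row beyond 3 are Hspa5, Hsp90b1 and Hyou1.

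In the class comparisons, 0 genes of the 6 lists rose and 0 fell (limma), and genes with the smallest p-values of each list are given for both. Which of these genes passed the filter only with class 2 was not checked. Their differences in both class comparisons are therefore descriptions, and their p-values are not read as tests. For class 4 against class 2 their adjusted p-values ran from 0.187 to 0.479. Of the ER folding genes, 13 of 17 had lower values (median -0.74), and the lectin chaperone Canx (calnexin) differed by -3.29 (SE 1.22), its partner disulfide isomerase Pdia3 by -1.76 and the BiP co-chaperone Dnajb11 by -1.82. Of the degradation genes, 12 of 16 had lower values (median -0.65), with Bag6, which holds hydrophobic clients for the proteasome, at -1.70 and Sel1l3 at -1.39. Of the sensors and transcription factors, 3 of 5 had lower values (median -1.02), with Tmbim6 at -2.65 and Creb3l3 at -3.04, while Atf6b, a relative of ATF6, was at 2.25.

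Of the PERK-ATF4 targets, 7 of 9 had lower values in class 4 (median -0.54), with the transcription factor Cebpb at -2.70, the alanyl-tRNA synthetase Aars at -1.81 and Slc3a2, a subunit of amino acid transporters, at -1.76. In the translocon list, 1 of 11 genes had a lower value (median 0.36). That gene was Tram1, a translocon protein, at -2.96 (SE 1.25), while the oligosaccharyltransferase subunits Tusc3 and Rpn2 were at 1.80 and 1.39. Of the chaperones outside the ER, 7 of 12 had lower values (median -0.40), with Hspa9 at -3.06 (SE 1.01), its mitochondrial co-chaperone Dnaja3 at -1.84 and the heat shock factor Hsf1 at 1.64.

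For class 8 against class 2 the adjusted p-values of the named genes ran from 0.48 to 0.856. ER folding genes had lower values in 12 of 17 (median -0.46), with Dnajb11 at -2.50 (SE 0.84), the glycoprotein folding sensor Uggt1 at -2.02 and Dnajc1 at 1.37. Degradation genes had lower values in 10 of 16 (median -0.32), with Bag6 at -1.08, the ubiquitin ligase March6 at -1.42 and the p97 cofactor Nploc4 at -1.18. Sensors and transcription factors had lower values in 3 of 5 (median -0.05), with Tmbim6 at -1.71, Creb3l3 at -1.76 and Creb3l2 at 0.90.

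PERK-ATF4 targets had lower values in class 8 in 7 of 9 (median -1.17), with Aars at -2.26 (SE 0.97), Slc3a2 at -1.29 and Ppp1r15b, a phosphatase subunit that restores translation, at -1.17. Translocon genes had lower values in 6 of 11 (median -0.18), with Tusc3 at 1.62, Sec62 at -1.28 and Sec61a2 at -0.97. Chaperones outside the ER had lower values in 8 of 12 (median -0.56), with Hspa9 at -1.93, Dnaja3 at -1.16 and the Hsp70-Hsp90 adaptor St13 at 1.29.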

How the data were processed

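Expression was measured by RNA-seq of liver in 24 libraries. The labels' protocols describe RNA purification by a kit made for fixed, embedded tissue and single-end sequencing. TopHat, edgeR and build mm9 are named by the submitters' processing notes, without versions; the sources used here do not give the counting, annotation or normalization. The deposited values were taken to be natural log values of a quantile-normalised count plus 1. No label states this: it was read from the highest value, identical in 20 of 24 libraries, and from 942 genes of WT number 1 class 2 that sit where quantile normalisation over 24 libraries puts a count of 1 in 2 libraries and 0 in the others. Division by the natural log of 2 gave log2 values. At low values, differences depend on the added 1.

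The filter kept genes whose deposited value reached 1 in 4 or more libraries. These 4875 genes were fitted with limma-trend (limma 3.58.1, R 4.3.3), with Benjamini-Hochberg adjustment over all of them and a threshold of 0.05. Class, within-class genotype and interaction comparisons used the 24 libraries with 1 mean per group. The genotype comparison over all classes used 1 mean per genotype and number, where the prior weighed 152 degrees of freedom against 6 residual ones. Alternatives were other filters, another pseudocount, limma without a trend, a covariate, a replicate block and left-out libraries; the marker values, co-detection and counts of members without WT number 1 were added after seeing the data.

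Named genes are the members, the 3 genes of each wider list with the smallest p in a comparison described, any list gene past the threshold, and the 5 genes with the highest Spearman correlation with the mean of the members; 1 gene that this rule names is not reported here. The members, lists, tests and alternatives were chosen with earlier results of these data known.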

Additional observations from a re-analysis of the deposited data

Results flagged for a closer look

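In each of the 60 sets of 4 libraries (10 members, 6 groups), a library was picked out where its gap to the nearest other library exceeded Dixon's 95% critical value as a share of the range. Chance picks out about 1 in 20 sets of normally distributed values, a rate that does not carry over to these sets, since most hold zeros and 49 of the 60 had any value above 0. Of 22 sets picked out, 18 have a single library above 0, which gives the largest possible ratio whatever the size of the value.

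The other 4 concern the chaperones in TGA. Hyou1 was 4.05 in TGA number 3 class 8, against 6.86 to 7.08 in the other 3 libraries. Hspa5 was 7.16 in TGA number 1 class 2, against 6.25 to 6.33, and 3.27 in TGA number 3 class 4, against 5.67 to 6.12. Hsp90b1 was listed at 0 in TGA number 1 class 8, against 7.01 to 7.97.

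WT number 1 was the single library above 0 for Hspa5 in class 8 (4.55), for Pdia4 and Xbp1 in class 2 (1.08 and 3.70), and in class 4 for Dnajb9 (3.80), Sel1l (3.1), Trib3 (0.66), Pdia4 (0.24), Xbp1 (1.33) and Atf4 (0.48). WT number 2 class 8 was so for Hsp90b1 (4.67), Dnajb9 (3.28), Xbp1 (2.19) and Atf4 (1.97), and WT number 4 class 8 for Pdia4 (1.68). In TGA the single libraries were number 4 class 8 for Dnajb9 (2.29), number 3 class 4 for Herpud1 (4.14), number 4 class 2 for Atf4 (0.99) and number 3 class 8 for Atf4 (0.66).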

How the results depend on the processing

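Over all classes, 1 member was called between TGA and WT, and the count moved to 0 with limma without a trend, with no filter on low values and with a pseudocount of 16, to 2 with the number of genes above 0 as a covariate and with the 4 libraries of over 7000 genes left out, and ranged from 0 to 3 over the 8 fits that each leave out 1 number. The difference for Hyou1 ranged from 2.07 to 6.14 over its 16 alternatives, with adjusted p (limma) from 0.000584 to 0.297. Those for Hsp90b1 and Hspa5 ranged from 1.81 to 4.84 and from 1.19 to 4.25. The 6.14 and 4.84 came from leaving out the 4 libraries of over 7000 genes, where the classes were not balanced between the genotypes. All 8 tested members kept their direction in this comparison. Within class 2, Hyou1 made the count 0 to 1 over the fits that leave out a number, being called without WT number 1. Without the libraries with over 7000 genes above 0, 1 member was called within class 8 (Hyou1) and 1 for class 4 against class 2 (Herpud1). The replicate block changed no count of members called (1 over all classes, with Hyou1 at an adjusted p of 0.0459, limma, and 0 elsewhere). Between genotypes this block joined libraries of the same number, which the labels do not link. The deviations of those libraries were correlated between -0.269 and 0.055. Same-numbered libraries of a genotype had deviations correlated between -0.096 and 0.432, over 0.1 in 2 of 24 pairs. Still, 12 of the 24 libraries correlated best with their own number. The numbers were not taken as pairs in the class comparisons. If libraries of a genotype and number come from 1 animal, those comparisons treat related libraries as separate.

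Every turn of direction was in a difference that had not passed. For class 4 against class 2, Hyou1 became 0.35 with the covariate and 0.09 without the libraries with over 7000 genes, and ranged from -0.71 to 0.24 over the fits that leave out a number. For class 8 against class 2, Hyou1 became 0.03 and Sel1l 0.11 without those libraries, and Xbp1 ranged from -0.39 to 0.59. For class 8 against class 4, Hspa5 became 0.21 without those libraries and Hsp90b1 ranged from -2.09 to 0.05. Between genotypes in class 4, Herpud1 became 0.34 without those libraries and ranged from -2.10 to 0.34, and Trib3 became 0.13 with the covariate. In class 8, Dnajb9 ranged from -0.82 to 0.57. The interaction with class 8 ran over alternatives from -0.07 to 2.55 for Hyou1, -1.52 to 0.77 for Hspa5, -1.52 to 2.55 for Hsp90b1, -0.33 to 2.92 for Dnajb9, -2.14 to 1.69 for Herpud1, -0.08 to 1.97 for Sel1l and -0.28 to 1.69 for Xbp1, and that with class 4 from -0.88 to 0.98 for Hspa5, so none of these has a settled direction. The cause was not tested. Depth is unknown, and with 127 of 240 member values at 0 small differences were not detectable.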
